A study of Mus musculus with 9 samples.

Results

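The TGF-beta ligands, their receptors, activin A, myostatin and the secreted antagonist follistatin were followed across 3 populations of mouse myoblasts, the dividing cells that fuse into skeletal muscle fibres. By symbol, 10 of the 47729 genes in the count tables were taken: the ligand genes Tgfb1, Tgfb2, Tgfb3, Mstn and Inhba, the receptor genes Tgfbr1, Tgfbr2, Tgfbr3 and Acvr2a, and Fst. Messenger RNA had been sequenced from myoblasts of the FVB/N strain, with 3 libraries for each population. The populations were SRCs of cycle 3 (SRC3), FRCs of cycle 1 (FRC1) and the parental cells (PAR). SRCs and FRCs are both labelled as reserve cells, a name used for the single cells left undifferentiated among the myotubes of a myoblast culture. After isolation, according to the labels, they had been passaged in growth conditions, so that all 3 populations were compared as proliferating cultures, and no allele or agent sets them apart. How the reserve cells were isolated, what a cycle comprised, and whether the parental cells were a clone is not given in the sources used here. Nothing in the labels ties the 3 libraries of a population to separate cultures, and the p-values therefore describe the spread between these libraries, which may be technical.

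TGF-beta, activin and myostatin are dimeric secreted ligands that bind a type II receptor kinase (TGF-beta receptor II, or an activin receptor such as Acvr2a), which then phosphorylates a type I receptor kinase such as TGF-beta receptor I. The type I receptor phosphorylates Smad2 and Smad3, which enter the nucleus with Smad4 and regulate genes, some of which, like Smad7 and Skil, feed back on the pathway. In skeletal muscle, TGF-beta and activin are known to hold back myoblast differentiation and myostatin to limit muscle mass, while follistatin binds activins and myostatin outside the cell and neutralises them.

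Follistatin RNA was lower in both reserve populations than in PAR and lower in SRC3 than in FRC1. Inhba, which encodes the activin A subunit, was higher in FRC1 than in PAR and lower in SRC3 than in FRC1. Tgfb1 was higher and Tgfbr2 lower in each reserve population than in PAR, while Tgfbr1 and Acvr2a were lower in FRC1 than in either other population. Mstn had no read in any library. Levels are given in CPM, gene counts brought to a common library size with TMM scaling, as means ± SD over 3 libraries, and "changed", "higher" or "lower" as a call means an adjusted p under 0.05 in edgeR's quasi-likelihood test, adjusted by the Benjamini-Hochberg method over all 12540 tested genes.

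The 9 libraries held 13012996 to 14336279 gene counts, so that 3 counts in a single library corresponded to 0.209 to 0.231 CPM. SRC3 stood apart on the first principal component, with scores of 42.08 to 45.08 against -23.65 to -19.21 in the other 6 libraries, and of the 3 FRC1 libraries replicate 1 lay nearest to PAR on the second. The cells carried the markers of myoblasts: the summed level of 7 myoblast markers was 1858 to 2058 CPM in SRC3, 2684 to 2740 CPM in FRC1 and 2791 to 2876 CPM in PAR, with Myod1 and Des among the highest. One of the 7, Myf5, had 1 read in SRC3 and none in FRC1 and PAR. Bulk counts cannot tell fewer cells that express a gene from less RNA of that gene per cell.

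Per kilobase of merged exons, Tgfbr2 was the most abundant of the 10 genes in every population, at 13.8 CPM per kb in SRC3, 12.2 in FRC1 and 18.6 in PAR. Tgfbr1 followed at 10.5, 7.90 and 9.37 CPM per kb in SRC3, FRC1 and PAR, and Acvr2a at 10.3, 7.09 and 9.65. The levels of Tgfbr1 and Acvr2a overlapped between libraries in SRC3 and in PAR, so their order there did not exceed the spread, whereas in FRC1 all Tgfbr1 libraries lay above those of Acvr2a. Tgfb1 and Tgfb3 came next, at 6.97 and 6.33 CPM per kb in SRC3, 6.16 and 6.98 in FRC1, and 4.70 and 6.33 in PAR. The libraries of these 2 ligand genes overlapped in SRC3 and FRC1 and did not in PAR, and those of Acvr2a and Tgfb3 overlapped in FRC1. The place of Tgfb1 depends on the length taken: per kilobase of the longest annotated transcript, a choice made after the data were seen, it had 13.7 CPM per kb in SRC3, 12.1 in FRC1 and 9.21 in PAR. On that scale its libraries overlapped those of Tgfbr2 in SRC3 and FRC1, at 13.9 and 12.4 CPM per kb, and lay above those of Tgfbr1 in FRC1, at 8.97. Fst stood at 0.964 CPM per kb in SRC3, 1.55 in FRC1 and 2.67 in PAR, below all of these and above Tgfb2, Inhba, Tgfbr3 and Mstn in every population. Inhba lay below Tgfb2 in SRC3 (0.0865 against 0.213 CPM per kb) and in PAR (0.113 against 0.303), and its libraries overlapped those of Tgfb2 in FRC1, at 0.366 against 0.236.

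**Figure D1:**
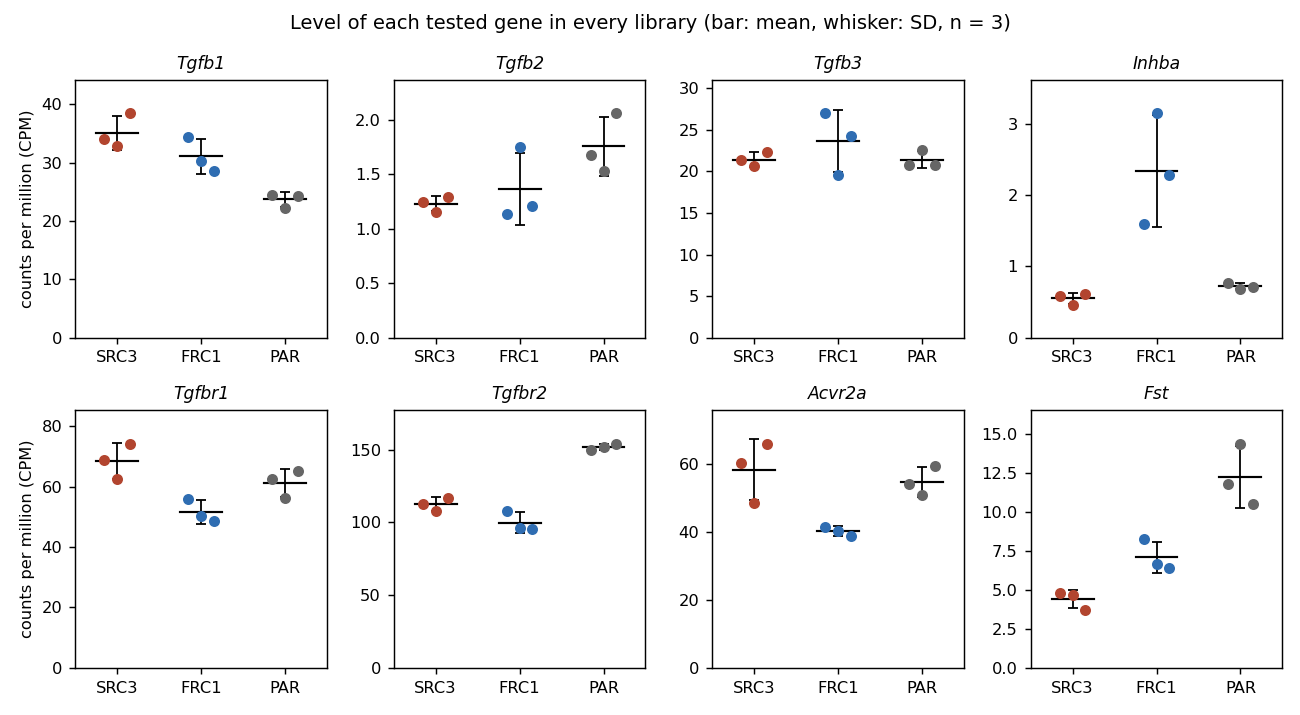
Level of each of the 8 tested genes in every library, in CPM on axes that start at 0, for SRC3, FRC1 and PAR from left to right; points are libraries, bars means and whiskers SD (n = 3). Fst is lowest in SRC3 and highest in PAR, Inhba is high in the 3 FRC1 libraries, and Tgfbr2 is higher in all 3 PAR libraries than in the other 6.

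The bases ahead of the transcription start are shown for 3 genes with different patterns across the populations: Inhba, high in FRC1, Tgfb1, high in both reserve populations, and Tgfbr2, high in PAR. Each is the stretch of 250 bases before the RefSeq start on GRCm38.p6, read 5′ to 3′ on the gene's strand, and capitals mark a GC box (GGGCGG, the letters bound by Sp1) or a TATA box (TATAAA).
Inhba, chr13:16011601-16011850, plus strand: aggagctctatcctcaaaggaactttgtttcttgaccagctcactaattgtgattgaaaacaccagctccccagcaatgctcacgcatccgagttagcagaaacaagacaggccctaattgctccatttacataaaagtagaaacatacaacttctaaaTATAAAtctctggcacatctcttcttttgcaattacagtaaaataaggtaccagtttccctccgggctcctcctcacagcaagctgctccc
Tgfb1, chr7:25686752-25687001, plus strand: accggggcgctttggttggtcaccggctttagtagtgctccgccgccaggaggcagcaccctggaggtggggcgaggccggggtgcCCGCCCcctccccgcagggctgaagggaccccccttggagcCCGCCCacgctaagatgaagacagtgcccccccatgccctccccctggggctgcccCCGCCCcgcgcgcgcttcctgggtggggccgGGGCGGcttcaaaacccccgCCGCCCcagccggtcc
Tgfbr2, chr9:116175364-116175613, minus strand: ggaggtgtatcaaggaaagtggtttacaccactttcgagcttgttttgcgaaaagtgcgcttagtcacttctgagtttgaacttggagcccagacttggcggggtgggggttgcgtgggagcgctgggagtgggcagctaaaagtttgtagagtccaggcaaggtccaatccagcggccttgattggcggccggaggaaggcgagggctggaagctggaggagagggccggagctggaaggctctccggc
The Inhba stretch was 43.2% G and C and held 1 TATA box, whose first base lay at position -91 from the start. The Tgfb1 stretch was 75.2% G and C and held 5 GC boxes, the nearest at position -16, and that of Tgfbr2 was 58.4% G and C and held no match. Searched on both strands, none of these 3 stretches matched an AP-1 site (TGANTCA), an E box (CANNTG) or a paired Smad box (GTCTAGAC), and no 2 matches overlapped. Of 32851 RefSeq promoter stretches of the same length, 12.4% held the TATA box, 32.7% the GC box, 6.75% the AP-1 site, 66.2% the E box and 0.167% the paired Smad box, and the median content of G and C was 52.4%. Promoters were matched for 7 of the 10 genes. A match describes letters and not a bound site.

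Among the TGF-beta ligand genes, Tgfb1, on chromosome 7 from 25687002 to 25705077 (ENSMUSG00000002603, GRCm38), encodes the founding ligand of the family, which is secreted in a latent complex. It had 34.1, 32.9 and 38.5 CPM in the SRC3 libraries, 34.4, 30.3 and 28.5 CPM in FRC1, and 24.4, 22.3 and 24.4 CPM in PAR. All 6 reserve libraries lay above all 3 PAR libraries, while SRC3 and FRC1 overlapped. Its level was 1.48-fold higher in SRC3 than in PAR (log2 fold change 0.57 with SE 0.086, edgeR adjusted p = 2.7e-05) and 1.31-fold higher in FRC1 than in PAR (0.39, SE 0.087, edgeR adjusted p = 0.0023). These 2 comparisons share the PAR libraries. Between SRC3 and FRC1 the log2 fold change was 0.18 (95% interval 0.00 to 0.35, edgeR adjusted p = 0.11), and this difference passed without FRC1 replicate 1 (0.26, adjusted p = 0.03) or without SRC3 replicate 2 (0.23, adjusted p = 0.047).

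Tgfb3, which encodes a ligand for the same receptors (chromosome 12, 86056745 to 86079041), had 21.3, 20.6 and 22.4 CPM in SRC3, 27.0, 19.6 and 24.3 CPM in FRC1, and 20.8, 22.6 and 20.8 CPM in PAR. The groups overlapped in each comparison, and FRC1 varied most. No comparison passed: the log2 fold change was 0.00 in SRC3 against PAR (95% interval -0.21 to 0.22), 0.14 in FRC1 against PAR (-0.07 to 0.35) and -0.14 in SRC3 against FRC1 (-0.35 to 0.07), with edgeR adjusted p of 0.99, 0.32 and 0.32. Without FRC1 replicate 2, the lowest of the FRC1 libraries, the last of these was -0.25 and passed (edgeR adjusted p = 0.047). Tgfb2, the least abundant of these ligand genes, had 17, 15 and 17 reads in SRC3, 15, 25 and 17 in FRC1, and 24, 20 and 29 in PAR. Its SRC3 libraries lay below its PAR libraries, at 1.23 ± 0.0688 CPM against 1.76 ± 0.273 CPM, but the difference did not pass (log2 fold change -0.51, 95% interval -1.09 to 0.07, edgeR adjusted p = 0.15). FRC1 had 1.37 ± 0.334 CPM and overlapped both other groups.

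The make-up of the 3 TGF-beta ligand transcripts was compared within libraries. Of their summed counts per kilobase, Tgfb1 held 50.9, 50.9 and 52.8% in the SRC3 libraries, 45.5, 49.7 and 43.3% in FRC1, and 43.0, 38.9 and 42.6% in PAR. The 3 groups did not overlap. Means were 51.5 ± 1.08% in SRC3, 46.2 ± 3.21% in FRC1 and 41.5 ± 2.25% in PAR, and in each of the 3 pairs of groups a two-sided exact permutation test gave p = 0.1, the smallest that 3 against 3 libraries allow (0.15 after Benjamini-Hochberg adjustment over 9 such tests). Tgfb3 held 46.9 ± 1.05%, 52.0 ± 3.74% and 55.8 ± 2.55% in SRC3, FRC1 and PAR, and Tgfb2 1.57 ± 0.0404%, 1.80 ± 0.618% and 2.68 ± 0.415%. Which of Tgfb1 and Tgfb3 is the larger depends on the length taken for Tgfb1: with its longest annotated transcript of 2573 bases in place of 5042 bases of merged exons, Tgfb1 held 67.5% in SRC3, 62.5% in FRC1 and 58.0% in PAR.

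Inhba (ENSMUSG00000041324, chromosome 13, 16011851 to 16031621), whose product dimerises to activin A, was a low transcript with the widest span of group means among the 8 tested members. It had 8, 6 and 8 reads in the SRC3 libraries, 21, 45 and 32 in FRC1, and 11, 9 and 10 in PAR. Every FRC1 library exceeded every SRC3 and PAR library, and FRC1 replicate 2 held the most reads. In CPM these were 0.553 ± 0.0784 in SRC3, 2.34 ± 0.781 in FRC1 and 0.723 ± 0.0419 in PAR. Inhba was 3.22-fold higher in FRC1 than in PAR (log2 fold change 1.69 with SE 0.33, edgeR adjusted p = 0.00046) and 4.2-fold lower in SRC3 than in FRC1 (log2 fold change -2.07 with SE 0.37, edgeR adjusted p = 6.2e-05). SRC3 lay below PAR in every library, a difference that did not pass (log2 fold change -0.38, 95% interval -1.28 to 0.51, edgeR adjusted p = 0.5). Inhba reached the count filter through FRC1, where all 3 libraries exceeded the limit of 0.734 CPM, against 0 in SRC3 and 1 in PAR.

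Like Inhba, markers of differentiating muscle had their highest summed level in FRC1, though not every marker did. The summed level of 8 such genes, among them Myog, Myh3 and Acta1, was 9.20 to 21.8 CPM in SRC3, 77.9 to 95.3 CPM in FRC1 and 10.2 to 13.1 CPM in PAR. All 8 had reads in FRC1 and in PAR, and Ckm was at 0 in SRC3. Myog averaged 1.61 ± 0.563 CPM in SRC3, 8.97 ± 1.58 CPM in FRC1 and 0.574 ± 0.194 CPM in PAR. The part of differentiating cells in the Inhba difference was not tested.

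Mstn, the myostatin gene (chromosome 1, 53061640 to 53068079), had 0 reads in all 9 libraries, which allows a level of up to 0.0756 CPM in SRC3, 0.0723 CPM in FRC1 and 0.0721 CPM in PAR, taking 3 counts over the 3 libraries as the limit. At this depth no level could be set for it in any population.

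Of the receptor genes, Tgfbr2 (ENSMUSG00000032440, chromosome 9, 116084293 to 116175360) encodes the type II receptor that binds TGF-beta. Its levels were 113, 108 and 117 CPM in the SRC3 libraries, 108, 96.4 and 95.4 CPM in FRC1, and 150, 152 and 154 CPM in PAR. The PAR libraries stood close together and above all 6 reserve libraries, and SRC3 and FRC1 overlapped in 1 library of each. Tgfbr2 was lower in SRC3 than in PAR by 1.35-fold (log2 fold change -0.43 with SE 0.055, edgeR adjusted p = 3.3e-06) and lower in FRC1 than in PAR by 1.52-fold (log2 fold change -0.60 with SE 0.056, edgeR adjusted p = 2.2e-07). It was 1.13-fold higher in SRC3 than in FRC1 (log2 fold change 0.17 with SE 0.056, edgeR adjusted p = 0.023), a call that was lost on leaving out SRC3 replicate 3 (adjusted p = 0.076), FRC1 replicate 2 (0.067) or FRC1 replicate 3 (0.093).

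Tgfbr1, which encodes the type I receptor that Tgfbr2 activates (chromosome 4, 47353222 to 47414931), followed another order. It had 68.8, 62.4 and 74.3 CPM in SRC3, 56.0, 50.3 and 48.6 CPM in FRC1, and 62.5, 56.2 and 65.0 CPM in PAR. FRC1 lay below both other groups, and SRC3 and PAR overlapped. The gene was 1.33-fold higher in SRC3 than in FRC1 (log2 fold change 0.41 with SE 0.074, edgeR adjusted p = 0.00023). It was 1.19-fold lower in FRC1 than in PAR (log2 fold change -0.25 with SE 0.075, edgeR adjusted p = 0.017), which did not hold without FRC1 replicate 2 (adjusted p = 0.058), FRC1 replicate 3 (0.093), PAR replicate 1 (0.066) or PAR replicate 3 (0.09). SRC3 against PAR had a log2 fold change of 0.16 (95% interval 0.01 to 0.31, edgeR adjusted p = 0.092), and passed without SRC3 replicate 2 (0.23, adjusted p = 0.018).

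Acvr2a, a type II receptor gene for activins and myostatin (ENSMUSG00000052155, chromosome 2, 48814109 to 48903269), had 60.5, 48.7 and 66.1 CPM in SRC3, 41.7, 40.4 and 38.8 CPM in FRC1, and 54.1, 50.9 and 59.6 CPM in PAR. FRC1 was low in all 3 libraries, and the SRC3 libraries spread across the range of PAR. Acvr2a was 1.45-fold higher in SRC3 than in FRC1 (log2 fold change 0.54 with SE 0.094, edgeR adjusted p = 0.00032) and 1.36-fold lower in FRC1 than in PAR (log2 fold change -0.45 with SE 0.094, edgeR adjusted p = 0.0023). SRC3 against PAR did not pass (log2 fold change 0.09, 95% interval -0.10 to 0.28, edgeR adjusted p = 0.47) except without SRC3 replicate 2 (0.21, adjusted p = 0.026). The exons of Acvr2a overlap those of Orc4 on the other strand by 446 bases, and the strand setting of the counting is not given in the sources used here. Orc4 itself averaged 61.9 ± 7.70 CPM in SRC3, 63.8 ± 3.16 CPM in FRC1 and 62.8 ± 5.73 CPM in PAR.

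Tgfbr3, the gene of the co-receptor betaglycan (chromosome 5, 107106570 to 107289629), did not pass the filter on low counts. Its reads were 7, 12 and 3 in SRC3, 10, 1 and 5 in FRC1, and 2, 6 and 4 in PAR. The ratio of the summed counts, corrected for library size, was 1.92 in SRC3 against PAR, with a 95% counting interval of 0.911 to 4.26, 1.34 in FRC1 against PAR (0.594 to 3.10) and 1.44 in SRC3 against FRC1 (0.721 to 2.93). All 3 intervals include 1, and they cover counting error only. Fitted with no filter, which takes in the spread between libraries, the 3 comparisons had edgeR adjusted p of 0.33, 0.75 and 0.58.

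Fst, the follistatin gene (ENSMUSG00000021765, chromosome 13, 114452290 to 114458951), changed in all 3 comparisons. The SRC3 libraries had 4.84, 4.71 and 3.73 CPM, the FRC1 libraries 8.26, 6.65 and 6.41 CPM, and the PAR libraries 11.8, 14.4 and 10.5 CPM. No group overlapped another. Fst was 2.76-fold lower in SRC3 than in PAR (log2 fold change -1.46 with SE 0.16, edgeR adjusted p = 3.3e-07) and 1.72-fold lower in FRC1 than in PAR (log2 fold change -0.78 with SE 0.15, edgeR adjusted p = 0.00043). Against FRC1, SRC3 was 1.6-fold lower (log2 fold change -0.68 with SE 0.17, edgeR adjusted p = 0.0039).

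**Figure D2:**
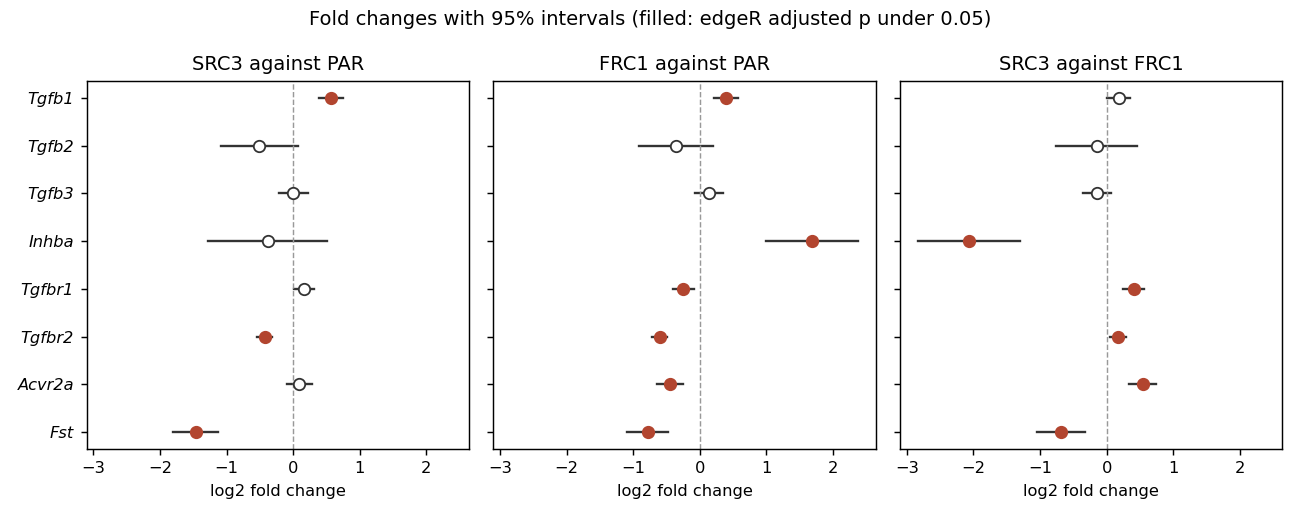
Log2 fold changes of the 8 tested genes with 95% intervals, for SRC3 against PAR, FRC1 against PAR and SRC3 against FRC1; filled points have an edgeR adjusted p under 0.05. The intervals of Fst lie below 0 in all 3 panels, that of Inhba lies above 0 in FRC1 against PAR and below 0 in SRC3 against FRC1, and those of Tgfb3 include 0 in each panel.

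Counted together, 8 of the 10 genes passed the filter on low counts, Inhba through FRC1 alone, and Mstn and Tgfbr3 did not. In SRC3 against PAR 1 was higher and 2 were lower, where 37.9% of all tested genes changed (17.8% higher, 20.2% lower). That count of 3 became 5 without SRC3 replicate 2, with Tgfbr1 and Acvr2a added. In FRC1 against PAR 2 were higher and 4 lower, where 28.3% of all genes changed (13.6% higher, 14.7% lower), and in SRC3 against FRC1 3 were higher and 2 lower, where 33.5% changed (15.5% higher, 18% lower). The libraries did not overlap for 5, 6 and 4 of the 8 genes in SRC3 against PAR, FRC1 against PAR and SRC3 against FRC1, against 49.1, 44.2 and 42.8% of all genes. In the same order the median log2 fold change of the 8 was -0.19, -0.30 and 0.02, against 0.01, 0.00 and 0.00 over all tested genes, and the median absolute log2 fold change 0.41, 0.42 and 0.29, against 0.18, 0.16 and 0.16. A change of at least 2-fold was called for 1 of the 8 in each comparison: Fst in SRC3 against PAR and Inhba in both others, where 6.71, 2.63 and 6.53% of all genes reached it. These counts describe genes picked with earlier results in view and give no separate evidence.

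The balance of Fst to Inhba and of the 2 TGF-beta receptor genes was compared within libraries. These pairs were chosen after their levels were seen and are described without a test. The size of such a ratio depends on the gene lengths taken, and the order of the groups does not. Counts per kilobase of Fst over those of Inhba gave 11.5, 14.2 and 8.53 in the SRC3 libraries, 7.23, 2.94 and 3.92 in FRC1, and 21.4, 29.1 and 20.6 in PAR. The 3 groups did not overlap, with the lowest ratio in FRC1 replicate 2, which had the most Inhba reads. The ratios rest on only 8, 6 and 8 Inhba reads in SRC3 and 11, 9 and 10 in PAR, so their counting error is large. The gap between SRC3 replicate 3, at 8.53, and FRC1 replicate 1, at 7.23, is small beside it. This ratio leaves out Fstl3, whose product also binds activins. Fstl3 had 8.90 CPM per kb in SRC3, 18.15 in FRC1 and 10.1 in PAR, where Fst had 0.964, 1.55 and 2.67. Tgfbr1 over Tgfbr2 gave 0.763, 0.727 and 0.795 in SRC3, 0.649, 0.653 and 0.639 in FRC1, and 0.523, 0.464 and 0.528 in PAR. Here SRC3 was highest and PAR lowest, and the 3 groups again stood apart. Tgfb1 over Tgfb3, formed in the same way, averaged 1.10 in SRC3, 0.894 in FRC1 and 0.745 in PAR. For that ratio FRC1 and PAR overlapped, with 0.787 in FRC1 replicate 3 and 0.788 in PAR replicate 1.

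**Figure D3:**
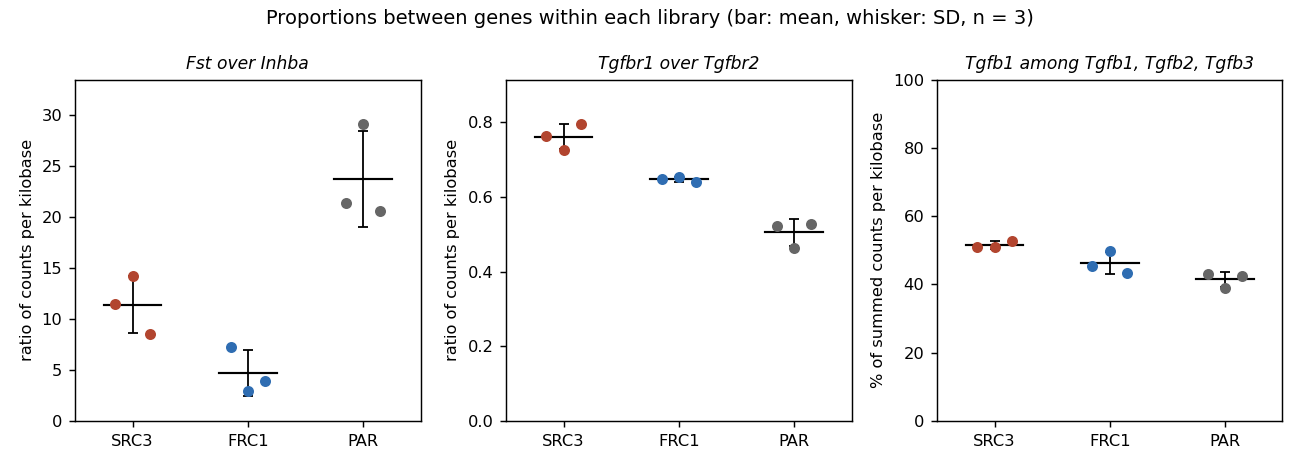
Proportions within each library for SRC3, FRC1 and PAR: the ratio of Fst to Inhba and of Tgfbr1 to Tgfbr2 in counts per kilobase, and the percentage of Tgfb1 in the summed counts per kilobase of the 3 TGF-beta ligand genes; points are libraries, bars means and whiskers SD (n = 3). Fst over Inhba averages 11.4 in SRC3, 4.70 in FRC1 and 23.7 in PAR, while Tgfbr1 over Tgfbr2 averages 0.762, 0.647 and 0.505.

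The genes whose profiles over the 9 libraries lay nearest to the 3 most variable members were found by the root mean square distance between centred log2 CPM. Rem2 (distance 0.162), Itga2 (0.179) and Srpx2 (0.262) were nearest to Inhba. Itga2, an integrin gene, averaged 5.24 CPM in SRC3, 17.3 CPM in FRC1 and 6.54 CPM in PAR. Nearest to Fst were Sdpr (0.169), Cpt1c (0.172) and Anpep (0.184), of which Sdpr, a gene of caveolae, averaged 145 CPM in SRC3, 233.5 CPM in FRC1 and 371 CPM in PAR. Nearest to Tgfbr2 were Ppp3ca (0.0418), a calcineurin subunit gene with 87.8 CPM in SRC3, 79.1 CPM in FRC1 and 118 CPM in PAR, Cpped1 (0.0472) and Dock11 (0.0559).

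Around these members, 78 further genes of the pathway were listed by role, of which 9 had no reads and 52 were tested. Of the 52, 15 were higher and 17 lower in SRC3 than in PAR, 14 higher and 10 lower in FRC1 than in PAR, and 11 higher and 16 lower in SRC3 than in FRC1. That is 61.5, 46.2 and 51.9% of the tested pathway genes, against 37.9, 28.3 and 33.5% of all tested genes. The lists were chosen with earlier results of these data known, so neither these shares nor those of the single lists give separate evidence. The median log2 fold changes of the 52 were 0.01, -0.01 and -0.08.

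Among 9 other ligand and subunit genes listed with the branch, not all of which encode its ligands, 5 had no reads, Nodal and Gdf3 among them. The 3 tested were Gdf11, Inha and Gdf15. Of these, 1 was lower in SRC3 than in PAR and 2 were lower in SRC3 than in FRC1. None of the 3 had an unadjusted p under 0.05 in FRC1 against PAR (0 by edgeR, DESeq2 and limma voom alike). The called share of these 3 genes was 33.3% in SRC3 against PAR and 66.7% in SRC3 against FRC1, where 37.9 and 33.5% of all tested genes changed. In FRC1 against PAR 28.3% of all tested genes changed. Gdf15, which encodes a distant family member induced by stress, had 5.28, 7.17 and 5.25 CPM in SRC3, 8.11, 10.2 and 9.27 CPM in FRC1, and 9.94, 10.8 and 10.8 CPM in PAR. SRC3 lay below both other groups: Gdf15 was lower in SRC3 than in PAR by 1.78-fold (edgeR adjusted p = 0.0001) and than in FRC1 by 1.56-fold (edgeR adjusted p = 0.0017). Gdf11, the closest relative of myostatin, was present at 27.6 ± 1.26 CPM in SRC3, 33.6 ± 1.47 CPM in FRC1 and 30.0 ± 3.33 CPM in PAR. It was lower in SRC3 than in FRC1 (log2 fold change -0.28, edgeR adjusted p = 0.013; 0.066 without FRC1 replicate 3).

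Of 17 genes for latency and activation of TGF-beta 12 were tested. Of the 12, 4 were higher and 2 lower in SRC3 than in PAR, and 4 higher and 1 lower in FRC1 than in PAR. In SRC3 against FRC1 2 were higher and 2 lower. In the same order the called share was 50.0, 41.7 and 33.3%, against 37.9, 28.3 and 33.5% of all tested genes. Of the listed integrin beta subunits that, with alpha V, can bind latent TGF-beta, Itgb5 and Itgb6 moved apart. Itgb8 had no call in any comparison, at 4.21 CPM in SRC3, 2.71 in FRC1 and 2.82 in PAR. Itgb1 was called in FRC1 against PAR alone, where it was higher. Itgav, the alpha V gene, was lower in each reserve population, at 185 CPM in SRC3 and in FRC1 against 211 CPM in PAR. Itgb5 had 28.2, 27.2 and 30.2 CPM in SRC3, 21.1, 15.5 and 20.5 CPM in FRC1, and 11.8, 10.8 and 12.7 CPM in PAR. No group overlapped another, and Itgb5 was 2.41-fold higher in SRC3 than in PAR, 1.61-fold higher in FRC1 than in PAR and 1.5-fold higher in SRC3 than in FRC1 (edgeR adjusted p = 1.6e-08, 0.00018 and 0.00018). Itgb6, whose product is known as an activator of latent TGF-beta, had 2.64, 3.01 and 2.89 CPM in SRC3, 8.26, 10.1 and 9.27 CPM in FRC1, and 8.75, 8.19 and 12.3 CPM in PAR. It was 3.43-fold lower in SRC3 than in PAR and 3.23-fold lower in SRC3 than in FRC1 (edgeR adjusted p = 1.4e-07 and 3.6e-07). Bmp1, which encodes a protease that can cleave latent complexes and myostatin propeptide, averaged 137 ± 8.89 CPM in SRC3, 131 ± 16.4 CPM in FRC1 and 94.9 ± 4.31 CPM in PAR, and was higher in each reserve population than in PAR (edgeR adjusted p = 5.8e-05 for SRC3 and 0.00041 for FRC1). Thbs1, the gene of thrombospondin 1, another activator, averaged 78.4 ± 12.0 CPM in SRC3, 145.5 ± 31.8 CPM in FRC1 and 105 ± 15.2 CPM in PAR. It was 1.86-fold lower in SRC3 than in FRC1 (edgeR adjusted p = 0.014), a call lost without SRC3 replicate 1 (0.054) or SRC3 replicate 3 (0.057).

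Of 8 other receptor genes 5 were tested. In SRC3 against PAR 1 of the 5 was higher and 1 lower, where 37.9% of all tested genes changed. In SRC3 against FRC1 1 of the 5 was lower, where 33.5% of all tested genes changed. In FRC1 against PAR edgeR called 0 of the 5, as did DESeq2 and limma voom, and 0 had an unadjusted p under 0.05. Of all tested genes 28.3% changed in FRC1 against PAR by edgeR. Bambi, which encodes a decoy receptor without a kinase, had 24, 14 and 11 reads in SRC3, 36, 36 and 28 in FRC1, and 39, 26 and 34 in PAR. It was 1.93-fold lower in SRC3 than in PAR (edgeR adjusted p = 0.012; 0.06 without PAR replicate 1 or without SRC3 replicate 3) and 1.95-fold lower in SRC3 than in FRC1 (edgeR adjusted p = 0.012; 0.063 without SRC3 replicate 3). Acvr1, a type I receptor gene, was 1.14-fold higher in SRC3 than in PAR, at 59.1 ± 5.27 against 51.7 ± 1.93 CPM (edgeR adjusted p = 0.029), and lost this call with DESeq2 (0.05) and without PAR replicate 2 (0.1), PAR replicate 3 (0.074) or SRC3 replicate 3 (0.17).

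Of 10 other extracellular binding proteins 3 had no reads and 2, the follistatin-like genes Fstl1 and Fstl3, were tested. Fstl3, whose product binds activins and myostatin as follistatin does, had 22.3, 25.4 and 17.6 CPM in SRC3, 40.8, 47.9 and 44.5 CPM in FRC1, and 23.8, 25.5 and 24.6 CPM in PAR. FRC1 stood above the other 6 libraries. Fstl3 was 1.8-fold higher in FRC1 than in PAR (edgeR adjusted p = 4.8e-06) and 2.04-fold lower in SRC3 than in FRC1 (edgeR adjusted p = 1.9e-07). In SRC3 against PAR its log2 fold change was -0.18 (95% interval -0.40 to 0.04, edgeR adjusted p = 0.2), and it passed without SRC3 replicate 2 (-0.29, adjusted p = 0.031). Fst and Fstl3 thus differed in direction in FRC1 against PAR, at log2 fold changes of -0.78 and 0.85. Fstl1, which is related in sequence, averaged 145 ± 17.4 CPM in SRC3, 279.5 ± 22.2 CPM in FRC1 and 244 ± 3.08 CPM in PAR, and was 1.69-fold lower in SRC3 than in PAR and 1.93-fold lower in SRC3 than in FRC1 (edgeR adjusted p = 1.1e-06 and 9.7e-08). In FRC1 against PAR it had a log2 fold change of 0.19 (edgeR adjusted p = 0.058).

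Of 18 Smad genes and intracellular regulators 17 were tested. In SRC3 against PAR 6 were higher and 4 lower, and in FRC1 against PAR 3 were higher and 5 lower. In SRC3 against FRC1 6 were higher and 2 lower. The called share was 58.8, 47.1 and 47.1% in the same order, against 37.9, 28.3 and 33.5% of all tested genes. Smad3, which carries the signal of the receptor to DNA, had 29.3, 28.4 and 32.2 CPM in SRC3, 37.7, 26.4 and 30.2 CPM in FRC1, and 42.0, 42.0 and 41.8 CPM in PAR. All reserve libraries lay below PAR, and Smad3 was 1.4-fold lower in SRC3 than in PAR and 1.34-fold lower in FRC1 than in PAR (edgeR adjusted p = 0.00074 and 0.0036). Pmepa1, Smad7 and Skil, whose products restrain Smad signalling, were higher in each reserve population than in PAR. Not every listed regulator rose. In FRC1, Ski, Smurf1 and Nedd4l were lower than in PAR, at 183, 152 and 91.7 CPM against 203, 167 and 110 CPM. Tgif2 was lower in SRC3 than in PAR, at 15.6 against 19.8 CPM, and Smurf2 was higher, at 107 against 96 CPM. Pmepa1, whose product sequesters Smad2 and Smad3, had 80.2, 78.5 and 79.3 CPM in SRC3, 63.1, 121 and 90.5 CPM in FRC1, and 33.4, 33.0 and 38.0 CPM in PAR. It was 2.28-fold higher in SRC3 than in PAR and 2.64-fold higher in FRC1 than in PAR (edgeR adjusted p = 0.0077 and 0.0054).

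Smad7, which blocks the type I receptor, had 50.4, 50.6 and 43.5 CPM in SRC3, 46.4, 72.2 and 55.5 CPM in FRC1, and 34.8, 33.5 and 36.0 CPM in PAR. FRC1 replicate 2 was the highest library for Smad7 and Pmepa1, as it was for Inhba. Smad7 was 1.67-fold higher in FRC1 than in PAR (edgeR adjusted p = 0.0041) and 1.39-fold higher in SRC3 than in PAR (edgeR adjusted p = 0.03). The SRC3 call was lost without any 1 of the PAR replicates (edgeR adjusted p = 0.063 to 0.09), without SRC3 replicate 1 (0.085) or without SRC3 replicate 2 (0.12). Skil, whose product SnoN represses Smad targets, averaged 164 ± 12.5 CPM in SRC3, 192.5 ± 21.2 CPM in FRC1 and 129.5 ± 2.76 CPM in PAR. It was higher in SRC3 than in PAR and in FRC1 than in PAR (log2 fold changes 0.34 and 0.57, edgeR adjusted p = 0.0012 and 1.8e-05). In SRC3 against FRC1 Skil was lower (log2 fold change -0.23, edgeR adjusted p = 0.016), which was lost in a fit of those 2 groups alone (0.05) and on leaving out SRC3 replicate 1 (0.09), SRC3 replicate 2 (0.085), FRC1 replicate 2 (0.11) or FRC1 replicate 3 (0.078).

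Genes known to respond to TGF-beta in various cell types changed in both directions. Of 20 listed targets 17 were tested. In SRC3 against PAR 7 were higher and 8 lower, in FRC1 against PAR 9 higher and 4 lower, and in SRC3 against FRC1 3 higher and 8 lower, with median log2 fold changes of -0.22, 0.57 and -0.25. Smad7, Skil and Pmepa1 are counted here as well as among the regulators. The called share was 88.2, 76.5 and 64.7%, against 37.9, 28.3 and 33.5% of all genes. As the targets were listed with earlier results of these data known, this contrast gives no separate evidence.

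The smooth muscle genes Acta2 and Tagln, targets of TGF-beta in fibroblasts, had opposite directions in the 2 reserve populations. Acta2 had 7.70, 14.3 and 3.80 CPM in SRC3, 173, 233 and 192 CPM in FRC1, and 65.0, 73.6 and 63.0 CPM in PAR. It was 7.83-fold lower in SRC3 than in PAR and 2.97-fold higher in FRC1 than in PAR (edgeR adjusted p = 0.00067 and 0.0046), and 23.3-fold lower in SRC3 than in FRC1 (edgeR adjusted p = 6.9e-05). Tagln had 5.72, 11.1 and 2.96 CPM in SRC3, 169, 263 and 219 CPM in FRC1, and 110.5, 124 and 103 CPM in PAR. It was lower in SRC3 than in PAR by 17.1-fold (log2 fold change -4.09, edgeR adjusted p = 0.00018; -4.68 without SRC3 replicate 2) and lower in SRC3 than in FRC1 by 33-fold (edgeR adjusted p = 6.2e-05). The rise of Tagln in FRC1 against PAR (log2 fold change 0.95, edgeR adjusted p = 0.033) was lost with DESeq2 (0.11), with no filter (0.057) and without FRC1 replicate 2 (0.095), FRC1 replicate 3 (0.096), any 1 of the PAR replicates (0.077 to 0.11) or SRC3 replicate 1 (0.056). Defining markers of smooth muscle and pericytes were at or near 0: Cnn1 had 0 reads in SRC3, 1 in FRC1 and 3 in PAR, Myh11 had 6, 0 and 0, and Pdgfrb 2, 0 and 1. The summed level of the 6 listed markers was 4.18 to 5.70 CPM in SRC3, 5.95 to 14.4 CPM in FRC1 and 10.7 to 13.4 CPM in PAR, most of it from Notch3.

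Cdkn2b, the gene of the cell cycle inhibitor p15 and a TGF-beta target in epithelial cells, had 5 reads in all of SRC3, 4 of them in replicate 2, against 2108 in FRC1 and 3707 in PAR. That is 0.128 ± 0.161 CPM in SRC3, 51.0 ± 8.12 CPM in FRC1 and 89.6 ± 2.78 CPM in PAR. It was lower in SRC3 than in PAR and than in FRC1 (log2 fold changes -9.37 and -8.56, edgeR adjusted p = 5.8e-13 and 5.5e-12; -10.91 and -10.09 without SRC3 replicate 2) and 1.76-fold lower in FRC1 than in PAR (edgeR adjusted p = 3.2e-05). Ctgf, a matrix-associated growth factor gene, was low throughout, with 24, 26 and 22 reads in SRC3, 11, 58 and 18 in FRC1, and 10, 4 and 2 in PAR. Ctgf reached the count filter through SRC3 and FRC1, since no PAR library exceeded the limit of 0.734 CPM. It was called higher in SRC3 than in PAR (log2 fold change 2.20, edgeR adjusted p = 0.035) and in FRC1 than in PAR (2.41, edgeR adjusted p = 0.027). Both calls were lost without PAR replicate 2 or PAR replicate 3 (edgeR adjusted p = 0.1 for SRC3, 0.086 and 0.087 for FRC1), that of SRC3 without any 1 of its own libraries (0.07 to 0.1) and that of FRC1 in a fit of the 2 groups alone (0.086). Without FRC1 replicate 2 the log2 fold change in FRC1 was 1.44, and without PAR replicate 1 the values were 2.99 for SRC3 and 3.18 for FRC1.

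**Figure D4:**
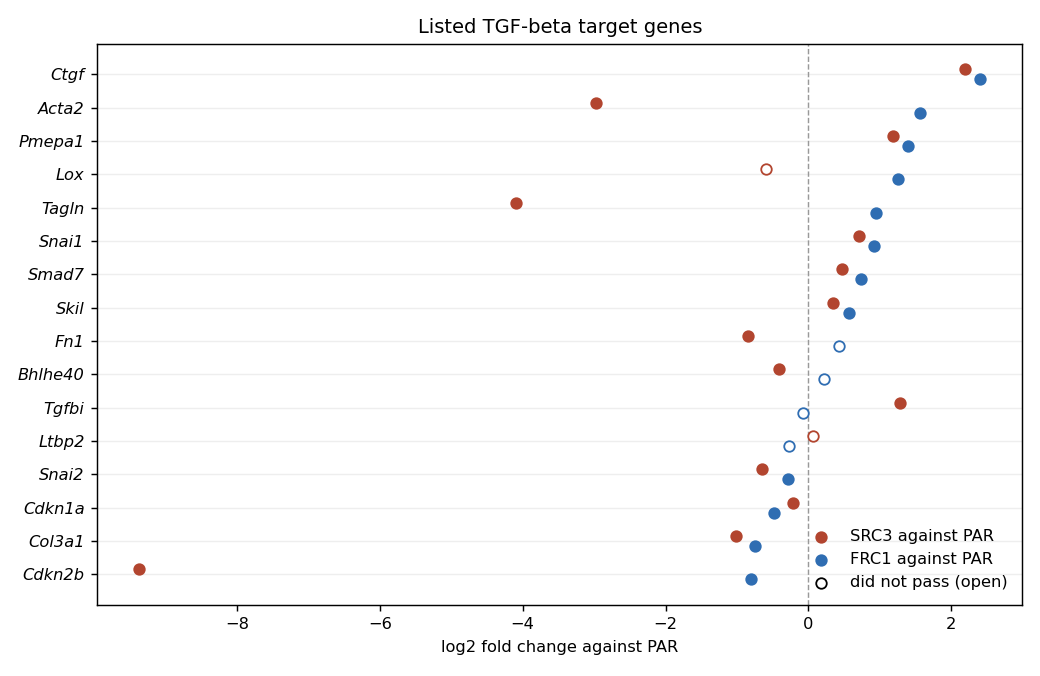
Log2 fold changes of 16 of the 17 tested TGF-beta target genes against PAR, red for SRC3 and blue for FRC1, ordered by the FRC1 value; filled points have an edgeR adjusted p under 0.05. Both sets share the PAR libraries. Acta2 and Tagln lie left of 0 in SRC3 (-2.97 and -4.09) and right of it in FRC1 (1.57 and 0.95), and the Cdkn2b value in SRC3 rests on 5 reads.

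Markers of fibroblasts, endothelium and leukocytes were compared across the populations. Of 7 fibroblast and fibro-adipogenic markers, Tcf21 and Lum had no reads in any library and Thy1 and Dpt had none in SRC3, and the summed level of 39.1 to 46.6 CPM in SRC3, 39.5 to 41.3 CPM in FRC1 and 44.5 to 57.6 CPM in PAR came mostly from Tcf7l2. The 5 endothelial markers summed to at most 0.380 CPM in SRC3, 0.560 CPM in FRC1 and 0.536 CPM in PAR, with Kdr and Emcn at 0 throughout. The 5 leukocyte markers summed to 2.89 to 4.40 CPM in SRC3, 2.27 to 3.42 CPM in FRC1 and 2.91 to 3.50 CPM in PAR, nearly all from Cd68, with Adgre1 at 0.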

How the data were processed

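Messenger RNA libraries, 3 each of SRC3, FRC1 and PAR, were made with a stranded TruSeq protocol, per the labels' protocols. The values analysed are counts of reads assigned to each gene, deposited by the authors without normalization. The tools listed are HISAT2 2.1.0, HTSeq 0.9.1 and DESeq2 and the build is GRCm38, per the submitters' processing notes, and the sources used here give none of their settings. Summary lines that name no gene (5.923 to 7.917% of uniquely aligned reads in no gene, 1.175 to 1.214% ambiguous) were left out. Of 47729 identifiers, 47224 were matched to GENCODE M21, which gave locations and exon lengths. Replicates differed by more than sampling noise (chi-square per degree of freedom 1.81 to 7.47).

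In R 4.3.3, genes were filtered with filterByExpr of edgeR 4.0.16 (minimum count 10, minimum total 15; this amounted to 0.734 CPM in at least 3 libraries), which left 12540. All 9 libraries were fitted with the group as the single term (6 residual degrees of freedom, TMM), and pairs of groups were compared by two-sided robust quasi-likelihood tests. Promoter stretches came from RefSeq on GRCm38.p6. Counting intervals are exact and at 95%, and reads carry no molecular identifiers, so that intervals and limits cover counting error only. Without the strand setting, overlapping antisense genes cannot be told apart. Alternatives were RLE or library-size scaling, no filter, a filter of 5 CPM in 3 libraries, limma voom 3.58.1, DESeq2 1.42.0, 2 groups alone, the replicate block, each library left out, and the longest transcript as gene length.

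The members and gene lists were chosen with earlier results of these data known. Named were all 10 members, up to 4 genes of each of 6 pathway lists with the largest called change, no overlap of the groups and a level of 1 CPM or more where higher, and the 3 nearest profiles of the 3 members with the widest span, leaving out predicted names. Values of 2 listed genes, and a marker sum made mostly of 1 of them, are not reported here.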

Additional observations from a re-analysis of the deposited data

How the results depend on the processing

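Of 14 calls among the 24 tests of members, 12 were kept under every alternative run and 2 were lost on leaving out a library (Tgfbr1 in FRC1 against PAR, Tgfbr2 in SRC3 against FRC1). Of 10 tests without a call, 4 passed on leaving out a library, and no called direction turned. Leaving out each library in turn gave 3 to 5 members called in SRC3 against PAR (5 without SRC3 replicate 2), 5 to 6 in FRC1 against PAR and 4 to 6 in SRC3 against FRC1, and 25 to 33, 18 to 27 and 24 to 29 pathway genes. Over all genes it gave 3845 to 4924, 2327 to 3987 and 3371 to 4281 calls, with 2327 without FRC1 replicate 3, and the cause was not tested. A left-out library leaves a group of 2, with fewer residual degrees of freedom. Inhba and Tgfb2 could not be tested under the stricter filter, nor Inhba for SRC3 against PAR in a fit of those 2 groups, which removed it. For single pathway genes, 859 values under an alternative kept their side of the threshold, 36 lost the call and 17 gained it. Among the gains is Fstl1 in FRC1 against PAR, which passed with DESeq2 (adjusted p = 0.045), limma voom (0.048), library sizes alone (0.036), no filter (edgeR 0.0024) and those 2 groups alone (edgeR 0.0052), and the range over all alternatives was 0.0024 to 0.23.

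Libraries with the same replicate number were at most weakly alike. The correlation of their deviations was -0.07 to 0.118, with 1 of 9 pairs over 0.1, against -0.089 to 0.122 for other pairs. Still, 6 of 9 libraries correlated best with their own number, and whether a number stands for something shared was not tested. With the replicate number as a block, 3, 6 and 5 members were called in SRC3 against PAR, FRC1 against PAR and SRC3 against FRC1, as without it, and 33, 25 and 27 pathway genes and 4798, 3560 and 4221 of all genes, against 32, 24 and 27 and 4758, 3550 and 4199.

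With the longest transcript as gene length, which by construction raises genes whose merged exons are longer, the Tgfb1 share was 67.5% in SRC3, 62.5% in FRC1 and 58.0% in PAR. Tgfb3 held 31.3, 36.0 and 39.9%, and Tgfb2 1.19, 1.41 and 2.16%. Depth limits Mstn, Tgfbr3, Inhba and Ctgf, whose reads per library number from 0 to 58.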
